A study of Mus musculus with 20 samples.

Results

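The renin-angiotensin system genes described here are 8 rows of a kidney gene table of 13842 genes, chosen by symbol: Agt, Ren1, Ace, Agtr1a, Enpep, Mme, Anpep and Atp6ap2. All 8 were found in the table and all 8 passed the filter on low values. They were measured in the left kidneys of 20 male mice, 5 in each of 4 groups. The tubule knockout mice (KDM6A TubKO) carried a floxed Kdm6a allele on their single X chromosome together with a Pax8Cre transgene (Kdm6afl/Y Pax8Cre+), and the control mice (KDM6A Ctrl) carried the Pax8Cre transgene alone (Pax8Cre+). The left ureter was tied in one set of each genotype (unilateral ureteral obstruction, UUO), while the other set had a sham operation without the tie. The 4 groups were thus TubKO UUO, Ctrl UUO, TubKO sham and Ctrl sham, and the kidneys were taken 7 days after surgery. The controls were matched for age, the age of these mice was not given in the sources used here, and both genotypes carried Cre. Pax8 drives Cre in tubule epithelium along the nephron and also in thyroid. Other kidney cells keep Kdm6a, which encodes a histone H3K27 demethylase.

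The renin-angiotensin system is a chain of proteins that sets blood pressure and salt balance, and the kidney holds most of its parts. Renin, released by juxtaglomerular cells of the afferent arteriole, cuts angiotensinogen to angiotensin I. Angiotensin-converting enzyme then makes angiotensin II, which acts mainly on the AT1 receptor. Membrane peptidases of the proximal tubule brush border trim and inactivate these peptides. Ureteral obstruction is a standard model in which this system has long been studied, since blockers of the system lessen scarring of the obstructed kidney.

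RNA levels were given as FPKM, the number of sequenced fragments of a gene scaled to the size of the library and to the length of its exons, so that levels may be compared between genes. These values do not keep the sequencing depth of each library, for which the study's methods give only a nominal figure. FPKM summed over all genes was 302995 to 316964 in TubKO UUO, 298467 to 316828 in Ctrl UUO, 352444 to 387375 in TubKO sham and 347739 to 360923 in Ctrl sham kidneys. Kdm6a itself averaged 3.04 ± 0.85 FPKM in TubKO UUO and 2.96 ± 0.63 FPKM in Ctrl UUO kidneys, and 1.20 ± 0.36 FPKM in TubKO sham and 2.05 ± 0.22 FPKM in Ctrl sham kidneys (SD, n = 5 each). In whole kidney this level also counts cells outside the tubule and exons outside the floxed part, and it did not separate the genotypes after UUO, where it is no check of the labels. One Ctrl UUO kidney (mouse 5) held adrenal RNA, with a summed level of 5 steroid enzyme and transport genes of 43.2 FPKM against at most 1.18 FPKM in any other kidney, and another (mouse 2) had the highest sum of 7 urothelial genes, 1153 FPKM. The Ctrl UUO kidney of mouse 5 also had the highest sum of 5 perirenal fat genes, 296 FPKM against at most 64.4 FPKM in any other kidney. One Ctrl sham kidney (mouse 3) had a tubule injury sum of 1217 FPKM over 8 genes, above the 306 to 560 FPKM of the other sham kidneys, and leaving it out changed no call among the 8 genes. Results are given with these kidneys, and the first 2 were also left out together, which is stated where it changed a call. Mice are numbered within their group only as names.

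The start regions of 4 of the genes are shown because they belong to the upstream end of the chain, renin and its substrate, to the converting enzyme Ace, and to Enpep, the peptidase that differed between genotypes after UUO. RefSeq windows on GRCm38.p6, from 250 bases before to 50 bases after the transcription start, were found for 7 of the 8 genes, in 10 windows, and not for Agtr1a. Each is read 5′ to 3′ on the gene's strand, and capitals mark the letters TATAAA on either strand (TTTATA where the match lies on the opposite strand).
Ren1, chr1:133350424-133350723, plus strand: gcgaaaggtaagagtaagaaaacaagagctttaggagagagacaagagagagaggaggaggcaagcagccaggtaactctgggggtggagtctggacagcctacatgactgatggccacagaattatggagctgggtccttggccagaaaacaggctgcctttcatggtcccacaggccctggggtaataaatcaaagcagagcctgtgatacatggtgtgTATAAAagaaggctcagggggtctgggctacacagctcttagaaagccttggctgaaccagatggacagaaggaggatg
Agt, chr8:124569657-124569956, minus strand: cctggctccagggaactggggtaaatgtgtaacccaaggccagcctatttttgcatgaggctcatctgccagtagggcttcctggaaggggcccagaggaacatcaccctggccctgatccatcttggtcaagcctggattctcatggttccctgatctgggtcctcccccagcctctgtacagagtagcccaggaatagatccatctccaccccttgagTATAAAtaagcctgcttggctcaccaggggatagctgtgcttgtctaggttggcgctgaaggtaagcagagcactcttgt
Ace, start of the full-length somatic form, chr11:105967698-105967997, plus strand: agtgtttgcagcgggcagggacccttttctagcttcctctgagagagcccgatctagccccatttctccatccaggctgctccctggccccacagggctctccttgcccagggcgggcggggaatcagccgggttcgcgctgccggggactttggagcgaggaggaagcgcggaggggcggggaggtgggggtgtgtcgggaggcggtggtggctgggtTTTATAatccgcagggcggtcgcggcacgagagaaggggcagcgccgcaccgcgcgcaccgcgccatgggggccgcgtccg
Enpep, chr3:129332700-129332999, minus strand: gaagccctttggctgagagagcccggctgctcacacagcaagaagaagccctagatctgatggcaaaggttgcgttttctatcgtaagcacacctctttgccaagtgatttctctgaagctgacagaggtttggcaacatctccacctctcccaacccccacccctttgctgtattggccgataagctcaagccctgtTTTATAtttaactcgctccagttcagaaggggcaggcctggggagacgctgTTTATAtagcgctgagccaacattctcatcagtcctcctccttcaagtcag
The Ren1 window held TATAAA from position -29 and the Agt window from position -30, both on the gene's own strand, counted from the start with no position 0. The Ace window held it on the opposite strand from position -31 and the Enpep window on the opposite strand from positions -52 and -1. It occurred in 13.6% of all 32851 promoter windows of the same length. GGGCGG, on either strand, was found 4 times in the Ace window shown and 4 times in the Anpep window. It was also in windows of Mme and Atp6ap2, but not in those of Ren1, Agt or Enpep, against 35.7% of all windows. TTCNNNGAA was found in the Agt window from position -172, in the Enpep window from position -141 and in 1 Mme window, against 8.3% of all windows. TGACGTCA was in none of the 10 windows and in 1.79% of all. The other Ace window, not shown (chr11:105974939-105975238), held none of these motifs. None of the TATAAA matches shared bases with a match of the other motifs. These are matches of letters only. The Ren1 transcript in the table started at 133350510, before the RefSeq start at 133350674, and the Anpep transcript in the table started at 79842352 on the minus strand, after the RefSeq start at 79848210.

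Mean levels in sham-operated Ctrl kidneys were 56.3 FPKM for Anpep, 47.2 for Ace, 43.6 for Agt, 36.9 for Atp6ap2, 26.9 for Enpep, 14.9 for Mme, 11.9 for Ren1 and 10.04 for Agtr1a. The SDs were 12.7, 12.3, 10.1, 1.59, 5.17, 1.90, 5.56 and 2.51 FPKM in the same order, so that neighbours in this order were not apart beyond their spread, with the exceptions of Atp6ap2 over Enpep and Enpep over Mme. In TubKO UUO kidneys the order was different, with Agt at 44.6 FPKM and Atp6ap2 at 42.1 above Anpep at 22.5, Enpep at 15.2, Ace at 14.4, Ren1 at 12.6, Mme at 11.7 and Agtr1a at 6.37. Agt and Atp6ap2, at the head of that list, were each within 1 SD of the other, and both stood above Anpep by more than the spread.

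**Figure D1:**
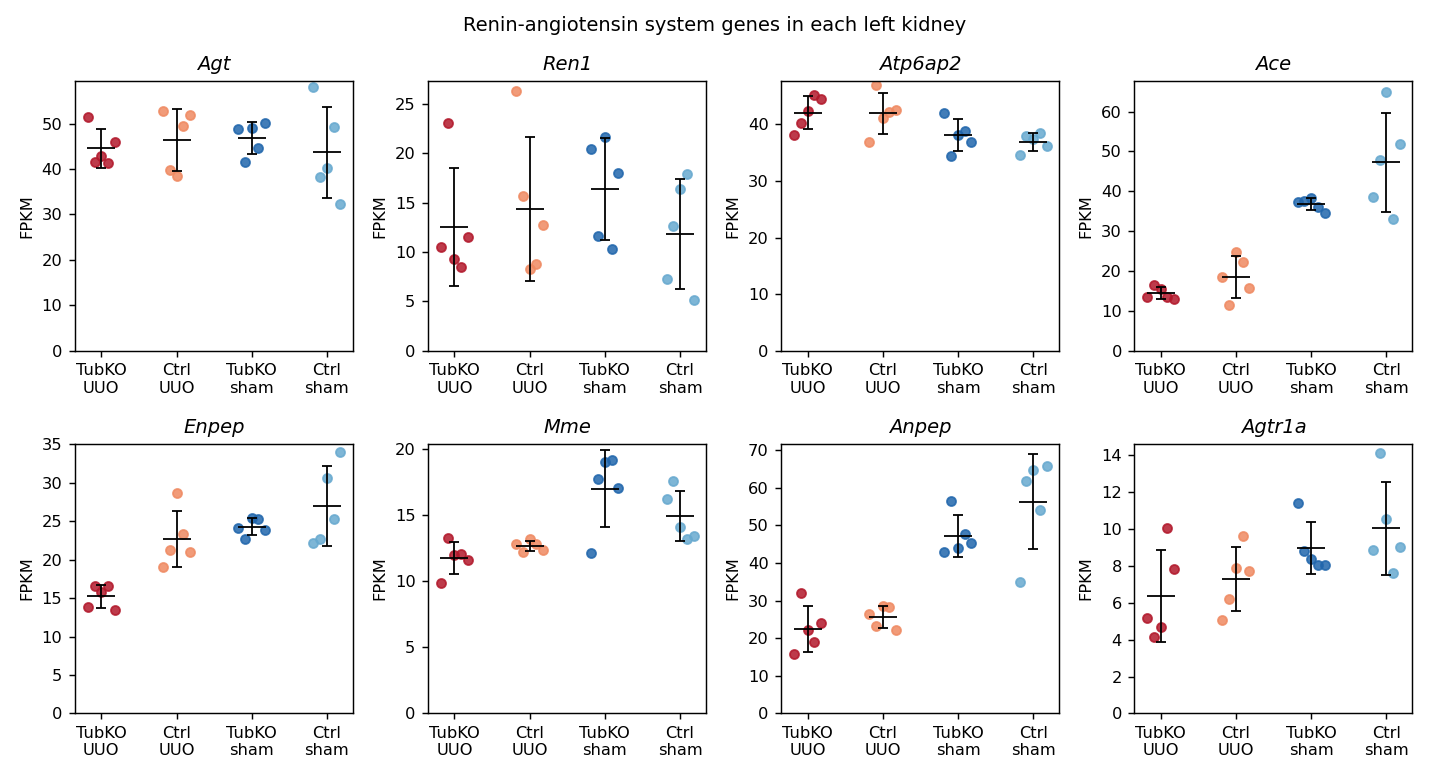
FPKM of the 8 genes in each of the 20 left kidneys, a panel per gene, with the 5 mice of each group as points and the mean ± SD as black bars. Ace and Anpep were lower in every UUO kidney than in any sham kidney of the same genotype. Enpep was lower in all 5 TubKO UUO kidneys than in any other kidney. The groups overlapped for Agt, Ren1, Atp6ap2 and Agtr1a. The share of all genes with groups apart in this way is not given.

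Obstruction was compared with sham surgery within each genotype, and Ace and Anpep fell in both genotypes while Agt and Ren1 did not pass the test in either. Every fold change is a difference in log2(FPKM + 1), tested with limma over all 20 kidneys and all 13842 genes, with Benjamini-Hochberg adjusted p values called under 0.05. In TubKO mice 5 of the 8 genes fell after UUO (Ace, Anpep, Enpep, Mme and Agtr1a) and none rose, where 16.7% of all genes tested fell and 57.9% rose. In Ctrl mice 2 of the 8 fell (Ace and Anpep) and 1 rose (Atp6ap2), where 15.1% of all genes fell and 56.7% rose. The median log2 change of all genes after UUO was 0.39 in TubKO and 0.35 in Ctrl mice, and the 8 genes had medians of -0.49 in TubKO and -0.22 in Ctrl mice. Rescaling each library to its upper quartile moved the all-gene median to 0.17 in TubKO and 0.13 in Ctrl mice, and quantile normalization moved it to -0.04 and -0.05 in the same order. The genes called after UUO were 8020 higher and 2307 lower in TubKO mice and 7844 and 2085 in Ctrl mice as deposited, 6114 and 3541 in TubKO and 5727 and 3374 in Ctrl mice after upper quartile rescaling, and 4384 and 4835 in TubKO and 3991 and 4848 in Ctrl mice after quantile normalization. Under both of these scalings the 5 genes that fell in TubKO mice also fell in Ctrl mice, and the rise of Atp6ap2 was lost. Without the 2 Ctrl UUO kidneys that stood apart the counts were 5 fallen in TubKO mice and 2 fallen in Ctrl mice, with none risen. The bulk kidneys do not tell fewer cells of a type apart from less RNA per cell. Where groups are said below to stand apart or not to overlap, the share of all genes that did so is not given.

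**Figure D2:**
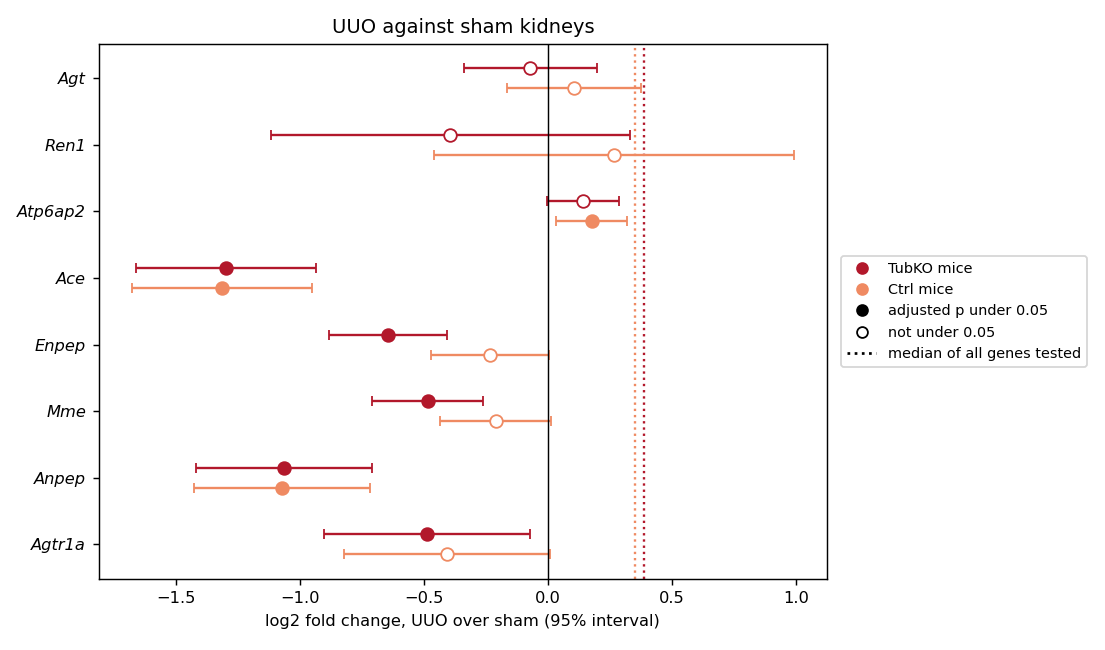
Log2 fold change of each gene, UUO over sham, with its 95% interval, in TubKO mice (dark red) and Ctrl mice (orange). Filled points passed an adjusted p of 0.05 and dotted lines mark the median of all genes tested, 0.39 in TubKO and 0.35 in Ctrl mice. Ace and Anpep lay near -1.3 and -1.07 in both genotypes and no gene lay above either dotted line.

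Agt encodes angiotensinogen, the only substrate of renin, which is made in liver and also in proximal tubule and fat (chr8:124556534-124569706, minus strand). It read 51.5, 41.4, 42.8, 41.3 and 46.0 FPKM in TubKO UUO kidneys, against 48.7, 41.6, 49.1, 44.7 and 50.1 FPKM in TubKO sham kidneys. In Ctrl mice it read 52.7, 39.8, 38.4, 49.4 and 51.9 FPKM after UUO, against 58.1, 38.3, 40.2, 49.3 and 32.4 FPKM after sham surgery. The groups overlapped in both genotypes. The Ctrl UUO kidney at 51.9 FPKM was that of mouse 5, which had the highest perirenal fat sum, and the part of fat in its level was not tested. Its log2 change after UUO was -0.07 (SE 0.13, limma adjusted p = 0.626) in TubKO and 0.10 (SE 0.13, adjusted p = 0.477) in Ctrl mice. Upper quartile rescaling gave -0.36 in TubKO mice, which passed the test (adjusted p = 0.0147), and -0.18 in Ctrl mice, which did not. All 20 proximal tubule marker genes fell in both genotypes, each of them further than Agt.

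Ren1 encodes renin (chr1:133350510-133360325, plus strand). Some mouse strains carry a near-identical second renin gene whose reads could be counted here, and that gene, Ren2, was not among the genes tested. Ren1 had the widest spread among mice of the 8 genes, with coefficients of variation of 47.7% in TubKO UUO, 51.0% in Ctrl UUO, 31.4% in TubKO sham and 46.9% in Ctrl sham kidneys. It read 10.5, 23.1, 9.26, 8.45 and 11.5 FPKM in TubKO UUO kidneys, against 20.4, 11.6, 21.7, 10.3 and 17.98 FPKM in TubKO sham kidneys. Ctrl UUO kidneys read 26.3, 15.7, 8.29, 8.75 and 12.8 FPKM, against 7.31, 12.6, 16.4, 17.9 and 5.09 FPKM in Ctrl sham kidneys. No group stood apart from another, and single kidneys of each UUO group (TubKO mouse 2, Ctrl mouse 1) were far above their group. The log2 change after UUO was -0.39 (95% interval -1.12 to 0.33, limma adjusted p = 0.311) in TubKO and 0.27 (-0.46 to 0.99, adjusted p = 0.503) in Ctrl mice, intervals that leave room for a change of about 2-fold.

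Atp6ap2 encodes the prorenin receptor, which is also an accessory subunit of the vacuolar proton pump and is made in nearly all cells (chrX:12587801-12617049, plus strand). Its coefficient of variation was 4.32% to 8.64% in the 4 groups. It read 38.1, 40.2, 42.4, 45.1 and 44.4 FPKM in TubKO UUO kidneys, against 42.1, 34.4, 38.1, 38.9 and 36.8 FPKM in TubKO sham kidneys. In Ctrl mice it read 36.9, 47.0, 41.0, 42.1 and 42.5 FPKM after UUO, against 34.5, 38.0, 37.4, 38.5 and 36.2 FPKM after sham surgery. In Ctrl mice 4 of 5 UUO kidneys were above every sham kidney. Its log2 change after UUO was 0.14 (SE 0.07, limma adjusted p = 0.0698) in TubKO and 0.18 (SE 0.07, adjusted p = 0.0268) in Ctrl mice, both below the all-gene median. The Ctrl rise turned to -0.10 under upper quartile rescaling and was 0.08 (adjusted p = 0.357) under quantile normalization. Without the 2 Ctrl UUO kidneys that stood apart it was 0.11 (adjusted p = 0.197), and the call was also lost without any one of Ctrl UUO mouse 2 (0.0862), Ctrl sham mouse 1 (0.0640) or Ctrl sham mouse 5 (0.0502). In TubKO mice the change passed the test without TubKO sham mouse 1 (0.18, adjusted p = 0.0300) or TubKO UUO mouse 1 (0.17, adjusted p = 0.0330).

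Ace, which encodes angiotensin-converting enzyme, fell most of the 8 genes after UUO, by about the same amount in both genotypes (chr11:105967945-105989964, plus strand). The enzyme makes angiotensin II and also breaks down bradykinin, and in the mouse kidney it sits in the proximal tubule brush border and in endothelium. It read 13.4, 16.5, 15.6, 13.5 and 13.04 FPKM in TubKO UUO kidneys, against 37.4, 37.5, 38.2, 36.1 and 34.5 FPKM in TubKO sham kidneys. Ctrl UUO kidneys read 18.5, 11.4, 24.9, 22.3 and 15.6 FPKM, against 38.5, 47.8, 65.0, 33.1 and 51.7 FPKM in Ctrl sham kidneys. All 10 UUO kidneys were below all 10 sham kidneys. It was 2.46-fold lower in TubKO mice (log2 change -1.30, SE 0.17, limma adjusted p = 1.5e-06) and 2.49-fold lower in Ctrl mice (-1.31, SE 0.17, adjusted p = 1.63e-06). Only 3.20% of all genes in TubKO and 2.30% in Ctrl mice had a lower log2 change.

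The table split Ace into a full-length somatic transcript, Ace-201 (105967945 to 105989964), and Ace-203, whose annotated start is incomplete (105971323 to 105989260). Ace-201 averaged 10.5 ± 0.9 FPKM in TubKO UUO and 21.4 ± 2.6 FPKM in TubKO sham kidneys, and 11.3 ± 2.8 FPKM in Ctrl UUO and 23.7 ± 6.9 FPKM in Ctrl sham kidneys (SD, n = 5 each). Ace-203 averaged 6.73 ± 2.71 FPKM in TubKO UUO and 24.5 ± 3.9 FPKM in TubKO sham kidneys, and 11.7 ± 4.6 FPKM in Ctrl UUO and 36.6 ± 8.9 FPKM in Ctrl sham kidneys. The share of Ace-201 in the sum of both was 61.9% ± 10.96 in TubKO UUO, 50.1% ± 7.0 in Ctrl UUO, 46.8% ± 6.8 in TubKO sham and 39.1% ± 2.4 in Ctrl sham kidneys. The split of shared exons between such transcripts is an estimate, and these shares are given as a description with no test. The testis form of Ace starts inside the gene, and a transcript with its annotated start was not used here.

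Anpep encodes aminopeptidase N, a brush border enzyme that turns angiotensin III into angiotensin IV (chr7:79821803-79861059, minus strand). It read 15.7, 32.0, 22.1, 18.9 and 23.9 FPKM in TubKO UUO kidneys, against 42.8, 56.4, 43.8, 47.6 and 45.2 FPKM in TubKO sham kidneys. In Ctrl mice it read 26.5, 23.3, 28.6, 28.2 and 22.1 FPKM after UUO, against 35.0, 61.9, 64.6, 54.1 and 65.8 FPKM after sham surgery. Again all 10 UUO kidneys were below all 10 sham kidneys. It was 2.09-fold lower in TubKO mice (log2 change -1.06, SE 0.17, limma adjusted p = 1.34e-05) and 2.10-fold lower in Ctrl mice (-1.07, SE 0.17, adjusted p = 1.44e-05).

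Enpep encodes aminopeptidase A, the enzyme that turns angiotensin II into angiotensin III (chr3:129269175-129332720, minus strand). It read 13.9, 16.5, 15.8, 16.6 and 13.4 FPKM in TubKO UUO kidneys, against 24.1, 22.7, 25.5, 25.3 and 23.9 FPKM in TubKO sham kidneys. Ctrl UUO kidneys read 19.1, 21.3, 28.6, 23.4 and 21.0 FPKM, against 22.2, 22.7, 30.6, 25.3 and 34.0 FPKM in Ctrl sham kidneys. The groups did not overlap in TubKO mice, and in Ctrl mice 3 of 5 UUO kidneys were below every sham kidney. It was 1.56-fold lower in TubKO mice (log2 change -0.64, SE 0.11, limma adjusted p = 4.35e-05). In Ctrl mice the log2 change was -0.23 (SE 0.11, adjusted p = 0.0726), and it passed the test under upper quartile rescaling (-0.51, adjusted p = 0.00121) and quantile normalization (-0.43, adjusted p = 0.00409). It also passed without any one of Ctrl sham mouse 1 (-0.30, adjusted p = 0.0281), Ctrl sham mouse 2 (-0.29, adjusted p = 0.0374) or Ctrl UUO mouse 3 (-0.32, adjusted p = 0.0138).

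Mme encodes neprilysin, a membrane endopeptidase that cuts angiotensin I, natriuretic peptides and kinins (chr3:63241537-63386030, plus strand). It read 9.87, 13.3, 12.0, 12.0 and 11.6 FPKM in TubKO UUO kidneys, against 12.1, 17.7, 19.0, 19.2 and 17.0 FPKM in TubKO sham kidneys. In Ctrl mice it read 12.8, 12.2, 13.2, 12.8 and 12.3 FPKM after UUO, against 16.2, 17.6, 14.1, 13.2 and 13.4 FPKM after sham surgery. In Ctrl mice every UUO kidney was below every sham kidney, by a narrow margin. In TubKO mice 1 sham kidney (mouse 1) was within the UUO range. It was 1.40-fold lower in TubKO mice (log2 change -0.48, SE 0.11, limma adjusted p = 0.000414). In Ctrl mice the log2 change was -0.21 (SE 0.11, adjusted p = 0.0825), and it passed the test under upper quartile rescaling (-0.48, adjusted p = 0.000434), quantile normalization (-0.49, adjusted p = 0.000335) and in a fit of the 10 Ctrl kidneys alone (-0.21, adjusted p = 0.0407), and without TubKO sham mouse 1, which enters this change through the spread shared by all groups (-0.21, adjusted p = 0.0254). Nearly all of the gene's level was in the transcript Mme-205, and Mme-201 averaged 0.15 ± 0.14 FPKM in TubKO UUO and 0.67 ± 0.19 FPKM in TubKO sham kidneys, and 0.43 ± 0.24 FPKM in Ctrl UUO and 1.06 ± 0.28 FPKM in Ctrl sham kidneys (SD, n = 5 each).

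Agtr1a encodes the main AT1 receptor of the mouse kidney, found on vascular smooth muscle, mesangium and tubules (chr13:30336441-30382867, plus strand). It read 5.18, 4.14, 4.66, 10.04 and 7.81 FPKM in TubKO UUO kidneys, against 11.4, 8.84, 8.40, 8.06 and 8.08 FPKM in TubKO sham kidneys. Ctrl UUO kidneys read 5.09, 6.19, 7.92, 9.64 and 7.74 FPKM, against 8.84, 14.1, 10.5, 7.64 and 9.05 FPKM in Ctrl sham kidneys. In TubKO mice 4 of 5 UUO kidneys were below every sham kidney, and mouse 4 was above all but 1 of them. It was 1.40-fold lower in TubKO mice (log2 change -0.49, SE 0.20, limma adjusted p = 0.0329), and in Ctrl mice the log2 change was -0.41 (SE 0.20, adjusted p = 0.0723). The TubKO call was lost without any one of TubKO UUO mouse 1 (adjusted p = 0.0718), mouse 2 (0.101) or mouse 3 (0.0870) or TubKO sham mouse 1 (0.0883), and when the 2 number series of the animal labels entered the fit (0.0716). In Ctrl mice the fall passed the test under upper quartile rescaling (-0.66, adjusted p = 0.00654) and quantile normalization (-0.77, adjusted p = 0.00293), and without any one of Ctrl sham mouse 4 (-0.49, adjusted p = 0.0440), Ctrl UUO mouse 4 (-0.50, adjusted p = 0.0365) or TubKO UUO mouse 4 (-0.41, adjusted p = 0.0416).

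**Figure D3:**
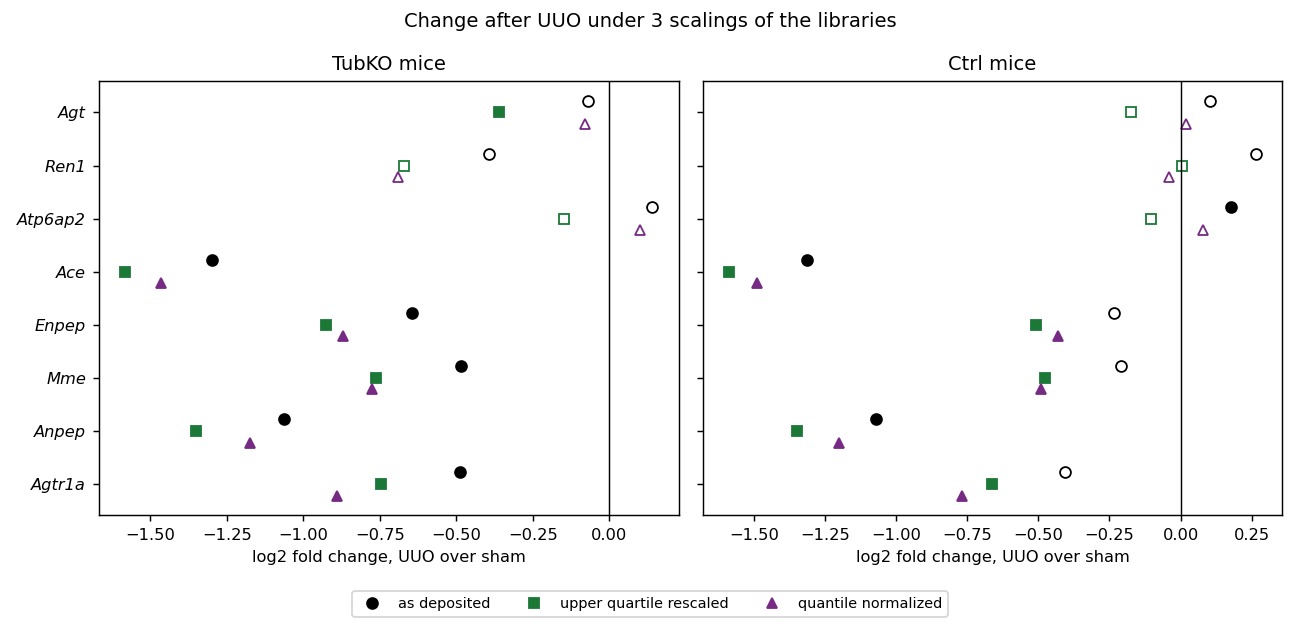
Log2 fold change after UUO of each gene in TubKO mice (left) and Ctrl mice (right) for values as deposited (circles), after upper quartile rescaling (squares) and after quantile normalization (triangles), filled where the adjusted p was under 0.05. Ace, Anpep, Enpep, Mme and Agtr1a were below 0 under all 3 scalings in both genotypes, and Atp6ap2 in Ctrl mice was at 0.18, -0.10 and 0.08.

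The tubule itself changed in the same kidneys. All 20 proximal tubule markers fell after UUO in both genotypes, with a median log2 change of -2.18 (range -3.81 to -0.95) in TubKO and -1.56 (range -3.31 to -0.88) in Ctrl mice. Their summed level was 973 to 2830 FPKM in TubKO UUO against 5841 to 6999 FPKM in TubKO sham kidneys, and 1377 to 2397 FPKM in Ctrl UUO against 5346 to 6699 FPKM in Ctrl sham kidneys. Ace lay inside the range of the markers, with 18 of the 20 falling further in TubKO and 15 of the 20 in Ctrl mice, and so did Anpep, with 18 and 19 of the 20 falling further. All 20 fell further than Enpep, Mme and Agtr1a in both genotypes. With each kidney rescaled to the mean of these markers, Ace was higher after UUO by 0.85 in TubKO (adjusted p = 0.000749) and by 0.44 in Ctrl mice (adjusted p = 0.0681), and Anpep by 1.08 (adjusted p = 4.99e-06) and 0.68 (adjusted p = 0.00209). The same rescaling adds 1 amount to every gene of a kidney, and it put the median of all genes at 2.54 in TubKO and 2.10 in Ctrl mice, above both genes. The part of the tubule loss in the falls of Ace and Anpep was not tested beyond these values. Of 10 markers of mesangium, pericytes and smooth muscle, where Agtr1a is also made, 8 rose and 1 fell in TubKO mice and 9 rose in Ctrl mice, with sums of 169 to 333 FPKM in TubKO UUO against 42.7 to 56.3 FPKM in TubKO sham kidneys and 179.98 to 244 FPKM in Ctrl UUO against 25.5 to 58.6 FPKM in Ctrl sham kidneys. Of 10 endothelial markers, where Ace is also made, 5 rose and 1 fell in TubKO mice and 5 rose in Ctrl mice. Of all genes 57.9% rose and 16.7% fell in TubKO and 56.7% and 15.1% in Ctrl mice. Under upper quartile rescaling 5 endothelial markers rose and 1 fell in TubKO mice, and 4 rose and 3 fell in Ctrl mice. Under quantile normalization 6 endothelial markers rose and 1 fell in TubKO mice, and 2 rose and 3 fell in Ctrl mice. Their sums were 138 to 182 FPKM in TubKO UUO against 94.7 to 123 FPKM in TubKO sham kidneys, and 101 to 149 FPKM in Ctrl UUO against 73.5 to 155 FPKM in Ctrl sham kidneys. The part of these cells in the levels of Agtr1a and Ace was not tested.

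Knockout was compared with control within each kind of surgery, to see whether loss of Kdm6a from the tubule changed these genes. After sham surgery none of the 8 passed the test in limma, where 1.94% of all genes were higher and 3.89% were lower in TubKO kidneys, and none had an unadjusted p under 0.05. These shares of all genes, from 269 higher and 539 lower, rested on single kidneys, with 58 higher and 127 lower without TubKO sham mouse 5, 66 and 135 without TubKO sham mouse 1, and 75 and 177 without Ctrl sham mouse 1. With the number series of the animal labels in the fit, 112 genes were higher and 249 lower. An F-test of the kind in Ballgown called none of the 8 and 3 higher and 12 lower of all 13842 genes, so that its 0 says nothing about the members. The intervals bound what could have been missed. The log2 difference was 0.51 (95% interval -0.22 to 1.23, adjusted p = 0.445) for Ren1, which read above every Ctrl sham kidney in 3 of 5 TubKO sham kidneys, and -0.32 (-0.68 to 0.04, adjusted p = 0.31) for Ace. It was 0.17 (-0.05 to 0.39) for Mme, -0.22 (-0.58 to 0.13) for Anpep and -0.13 for both Agtr1a and Enpep, and it was 0.12 (-0.14 to 0.39) for Agt and 0.04 (-0.10 to 0.18) for Atp6ap2. Among TubKO sham kidneys the coefficient of variation was 3.995% for Ace and 4.63% for Enpep, against 26.1% and 19.2% among Ctrl sham kidneys. It was also lower for Agt (7.62% against 23.1%), Anpep (11.6% against 22.6%), Ren1 and Agtr1a. It was higher for Mme (17.0% against 12.8%) and Atp6ap2 (7.37% against 4.32%). These differences in spread are given without a test.

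After UUO, Enpep was the single gene of the 8 to pass the test between genotypes, where 2.58% of all genes were higher and 3.07% lower in TubKO kidneys. Every TubKO UUO kidney (13.4 to 16.6 FPKM) was below every Ctrl UUO kidney (19.1 to 28.6 FPKM), and the share of all genes with such a gap is not given. Enpep was 1.45-fold lower in TubKO UUO kidneys, with a log2 difference of -0.54 (SE 0.11, 95% interval -0.78 to -0.30, limma adjusted p = 0.016). The call stood when any one kidney was left out, with a largest adjusted p of 0.0422 without Ctrl UUO mouse 3, and without the 2 Ctrl UUO kidneys that stood apart (-0.59, adjusted p = 0.0318). It was lost in a fit of the 10 UUO kidneys alone, where the difference was the same and the adjusted p 0.0848. That fit called 1 gene of 13695. The share of all genes called also moved with single kidneys, since 357 genes higher and 425 lower became 85 and 119 without TubKO UUO mouse 4, 91 and 176 without Ctrl UUO mouse 3, and 731 and 482 without Ctrl UUO mouse 5. Of 20 proximal tubule markers 2 were lower past the test in TubKO UUO kidneys (Hnf4a and Slc4a4) and 18 were not called, with a median difference of -0.37. Their sums overlapped, at 973 to 2830 FPKM in TubKO UUO and 1377 to 2397 FPKM in Ctrl UUO kidneys. After rescaling to these markers the Enpep difference was -0.17 (limma adjusted p = 0.576). That rescaling adds 1 amount to every gene of a kidney, and it moved the median of all genes to 0.37. It called 3 of 13842 genes in this comparison, so the lost call does not single out Enpep. The part of the proximal tubule in the Enpep difference was not tested. Urothelial markers moved in the same direction, with 5 of 7 lower and sums of 48.6 to 159 FPKM in TubKO UUO against 88.2 to 1153 FPKM in Ctrl UUO kidneys, and their part in the result was not tested.

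The other 7 genes did not pass the test after UUO. The log2 difference between TubKO and Ctrl UUO kidneys was -0.30 (95% interval -0.66 to 0.06, limma adjusted p = 0.29) for Ace, -0.21 (-0.57 to 0.14) for Anpep, -0.21 (-0.62 to 0.20) for Agtr1a and -0.10 (-0.33 to 0.12) for Mme. It was -0.15 (-0.87 to 0.57) for Ren1, -0.05 (-0.32 to 0.22) for Agt and 0.01 (-0.14 to 0.15) for Atp6ap2. The interval for Ren1 was the widest, and that for Atp6ap2 the narrowest.

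**Figure D4:**
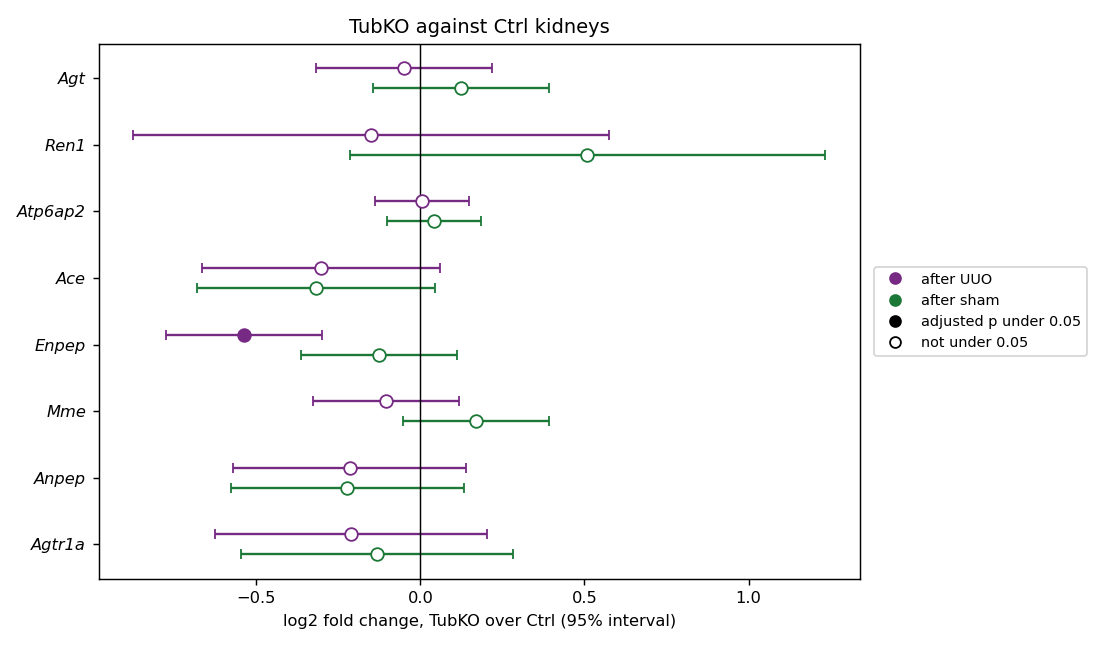
Log2 fold change of each gene, TubKO over Ctrl, with its 95% interval, after UUO (purple) and after sham surgery (green). The filled point is Enpep after UUO at -0.54, and the other 15 intervals include 0.

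The change after UUO was then compared between genotypes with an interaction term, since 5 falls in TubKO and 2 in Ctrl mice do not by themselves show a difference. None of the 8 interactions passed the test in limma, as was so for nearly all genes, of which 0.0144% were called in each direction. Enpep alone had an unadjusted p under 0.05. An F-test of the kind in Ballgown called none of the 8, and 17 higher and 10 lower of all 13842 genes. The limma calls over all genes, 2 in each direction, became 49 higher and 47 lower without TubKO UUO mouse 2. The term was -0.41 for Enpep (95% interval -0.75 to -0.07, adjusted p = 0.229) and -0.27 for Mme (-0.59 to 0.04, adjusted p = 0.38), both a larger fall in TubKO mice. It was -0.66 (-1.68 to 0.37) for Ren1, -0.17 for Agt, -0.08 for Agtr1a and -0.04 for Atp6ap2. For Ace (0.02, -0.50 to 0.53) and Anpep (0.01, -0.49 to 0.51) the falls after UUO differed little in size between genotypes, within intervals of about 0.5 on either side.

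Other enzymes and receptors of the angiotensin pathway were taken from a list of 22 genes, of which 13 were tested. After UUO 6 rose and 1 fell in TubKO mice, and 7 rose and 1 fell in Ctrl mice, with list medians of 0.24 in TubKO and 0.25 in Ctrl mice against all-gene medians of 0.39 and 0.35. The rises were near the share of all genes that rose, 57.9% in TubKO and 56.7% in Ctrl mice. Upper quartile rescaling gave 3 risen and 2 fallen in TubKO and 4 and 3 in Ctrl mice, and quantile normalization 4 and 5 in TubKO and 4 and 4 in Ctrl mice. Ctsb and Ctsd, lysosomal proteases able to act on prorenin or angiotensinogen, rose by 0.74 and 0.65 in TubKO and by 0.80 and 0.88 in Ctrl mice on the log2 scale. Rnpep, aminopeptidase B, rose by 0.74 in TubKO and 0.69 in Ctrl mice, and these 3 rose under all 3 scalings. Dpp3, an enkephalinase that also cuts angiotensins, rose by 0.38 and 0.47, and Prep, prolyl endopeptidase, by 0.35 in both genotypes, but Prep was at -0.18 and -0.13 under quantile normalization and Dpp3 no longer passed in TubKO mice under either other scaling. Thop1, thimet oligopeptidase, rose by 0.39 and Ctsa, cathepsin A, by 0.21 in Ctrl mice, and Thop1 turned to -0.12 under quantile normalization and Ctsa to -0.07 under upper quartile rescaling. The Ctsa call was also lost without any one of 5 Ctrl kidneys (largest adjusted p = 0.0850), and without the 2 Ctrl UUO kidneys that stood apart (0.18, adjusted p = 0.107). Agtrap, which binds the AT1 receptor and promotes its uptake, rose by 0.32 in TubKO mice and did not pass under upper quartile rescaling (0.04).

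Klk1, the tissue kallikrein of the distal tubule that releases kinins from kininogen, was the gene that fell. It averaged 209.6 ± 135 FPKM in TubKO UUO against 1812 ± 103 FPKM in TubKO sham kidneys, a log2 change of -3.32 (limma adjusted p = 2.41e-09). In Ctrl mice it averaged 214.6 ± 42 FPKM after UUO against 1246 ± 145 FPKM after sham surgery, a log2 change of -2.55 (adjusted p = 1.06e-07; SD, n = 5 each). Klk1 belongs to a family of closely similar mouse kallikreins, so its level is uncertain. Between genotypes 1 gene of the 13 passed, Lnpep, the angiotensin IV receptor and oxytocinase, at 1.71 ± 0.56 FPKM in TubKO sham against 3.38 ± 0.87 FPKM in Ctrl sham kidneys (log2 difference -0.69, adjusted p = 0.0153), and none passed after UUO. The Lnpep call was lost without either TubKO sham mouse 1 or mouse 5 (largest adjusted p = 0.0525).

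Genes known to regulate renin made a list of 17, of which 15 were tested, and 8 rose and 3 fell after UUO in TubKO mice against 9 and 3 in Ctrl mice. These were near the shares of all genes, of which 57.9% rose and 16.7% fell in TubKO and 56.7% and 15.1% in Ctrl mice. Quantile normalization turned the balance to 3 risen and 6 fallen in TubKO and 4 and 5 in Ctrl mice, and upper quartile rescaling gave 7 and 3 in TubKO and 6 and 3 in Ctrl mice. Ptgs2, the cyclooxygenase of the macula densa that drives renin release, rose to 1.41 ± 0.53 FPKM in TubKO UUO against 0.106 ± 0.061 FPKM in TubKO sham kidneys (log2 change 1.10, limma adjusted p = 0.00026) and to 3.53 ± 2.09 FPKM in Ctrl UUO against 0.220 ± 0.232 FPKM in Ctrl sham kidneys (1.79, adjusted p = 1.19e-06). Ptger4, a receptor for prostaglandin E2, rose by 2.18 in TubKO and 1.81 in Ctrl mice. Its mean was 5.12 FPKM in TubKO UUO against 0.337 FPKM in TubKO sham kidneys, and 3.83 FPKM in Ctrl UUO against 0.372 FPKM in Ctrl sham kidneys. At levels as low as those of Ptgs2 and Ptger4 after sham surgery, the 1 FPKM added before taking log2 lessens the change. Rbpj, the Notch effector of renin cells, rose by 1.16 and 0.88, and Akr1b7, an aldose reductase relative found in renin cells, by 0.93 and 1.05, although Akr1b7 in TubKO mice did not pass under quantile normalization (0.36). Gja5 and Npr1, the connexin 40 and natriuretic peptide receptor genes, rose by 0.73 and 0.69 in TubKO and by 0.71 and 0.70 in Ctrl mice, and neither passed in either genotype under quantile normalization. Vdr, Nr1h3 and Casr, the vitamin D receptor, a liver X receptor and the calcium-sensing receptor, fell in both genotypes, by 0.72, 0.75 and 1.07 in TubKO and by 1.14, 0.66 and 1.36 in Ctrl mice. Adcy6 rose in both genotypes, Adrb1 in TubKO mice, and Adcy5 and Gja4 in Ctrl mice, and under at least 1 of the other scalings Adrb1 in TubKO mice and Adcy5, Adcy6 and Gja4 in Ctrl mice turned negative. Without the 2 Ctrl UUO kidneys that stood apart, Adcy5, Adcy6 and Gja4 no longer passed in Ctrl mice (adjusted p = 0.15, 0.298 and 0.151), and each was also lost without any one of 4 to 6 single Ctrl kidneys. Most of these genes are also made outside renin cells. Between genotypes Ptgs2 was lower in TubKO than in Ctrl UUO kidneys (log2 difference -0.81, adjusted p = 0.0452; -0.78 and not called under upper quartile rescaling), and Rbpj was lower in TubKO than in Ctrl sham kidneys (-0.28, adjusted p = 0.0333; -0.22 and not called under quantile normalization). The Ptgs2 difference no longer passed in 15 of the 20 fits that left out 1 mouse (largest adjusted p = 0.116), nor without the 2 Ctrl UUO kidneys that stood apart (-0.77, adjusted p = 0.0516), and the Rbpj difference in 7 of the 20 (largest adjusted p = 0.0974).

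Of 6 tested genes of a mineralocorticoid and kinin list of 7, 2 rose and 2 fell after UUO in each genotype, beside shares of all genes of 57.9% risen and 16.7% fallen in TubKO and 56.7% and 15.1% in Ctrl mice. Bdkrb2, the kinin B2 receptor, rose by 1.60 in TubKO and 1.07 in Ctrl mice, and Kng1, a kininogen, by 1.91 and 1.25. Their means were low after sham surgery, 0.511 FPKM in TubKO and 0.574 FPKM in Ctrl kidneys for Bdkrb2, and 0.614 and 0.865 FPKM for Kng1. The 1 FPKM added before taking log2 lessens both changes. Nr3c2, the mineralocorticoid receptor, fell by 0.34 in TubKO and 0.32 in Ctrl mice, Hsd11b2, which shields that receptor from glucocorticoids, fell by 0.53 in TubKO mice, and Kng2 fell by 0.74 in Ctrl mice. The Ctrl fall of Nr3c2 was lost without Ctrl UUO mouse 3 (adjusted p = 0.0504). After UUO 2 of the 6 were higher in TubKO than in Ctrl kidneys, Bdkrb2 at 3.61 ± 0.74 against 2.33 ± 0.61 FPKM (log2 difference 0.47, limma adjusted p = 0.031) and Kng2 at 110.2 ± 16 against 72.4 ± 9.9 FPKM (0.60, adjusted p = 0.0309). Both calls were lost without any one of Ctrl UUO mice 2 and 3 and TubKO UUO mice 4 and 5 (largest adjusted p = 0.0782 for Bdkrb2 and 0.0757 for Kng2), and without the 2 Ctrl UUO kidneys that stood apart (0.36, adjusted p = 0.124, and 0.52, adjusted p = 0.106). Kng1 and Kng2 are close copies, and counting may have split reads between them. All 6 genes of the AT1 receptor signalling list were tested, and 4 rose after UUO in both genotypes, near the share of all genes: Gnaq, the Gq protein subunit, Rgs2 and Rgs5, which dampen Gq signalling, and Arrb2, a beta-arrestin that is abundant in leukocytes. Gnaq rose by 1.03 in TubKO and 0.77 in Ctrl mice and was higher in TubKO than in Ctrl UUO kidneys, at 27.9 ± 3.2 against 22.1 ± 1.8 FPKM (0.32, adjusted p = 0.0228), a call that was lost without any one of Ctrl UUO mouse 3 and TubKO UUO mice 4 and 5 (largest adjusted p = 0.0667). Gna11, a close relative of Gnaq, fell by 0.16 in TubKO mice, which was lost without any one of 5 TubKO kidneys (largest adjusted p = 0.0951). None of these genes had an interaction past the test. Macrophage and monocyte markers moved with UUO as well, with sums of 493 to 815 FPKM in TubKO UUO against 37.2 to 50.4 FPKM in TubKO sham kidneys and 444 to 960 FPKM in Ctrl UUO against 28.0 to 75.4 FPKM in Ctrl sham kidneys, and their part in these changes was not tested.

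**Figure D5:**
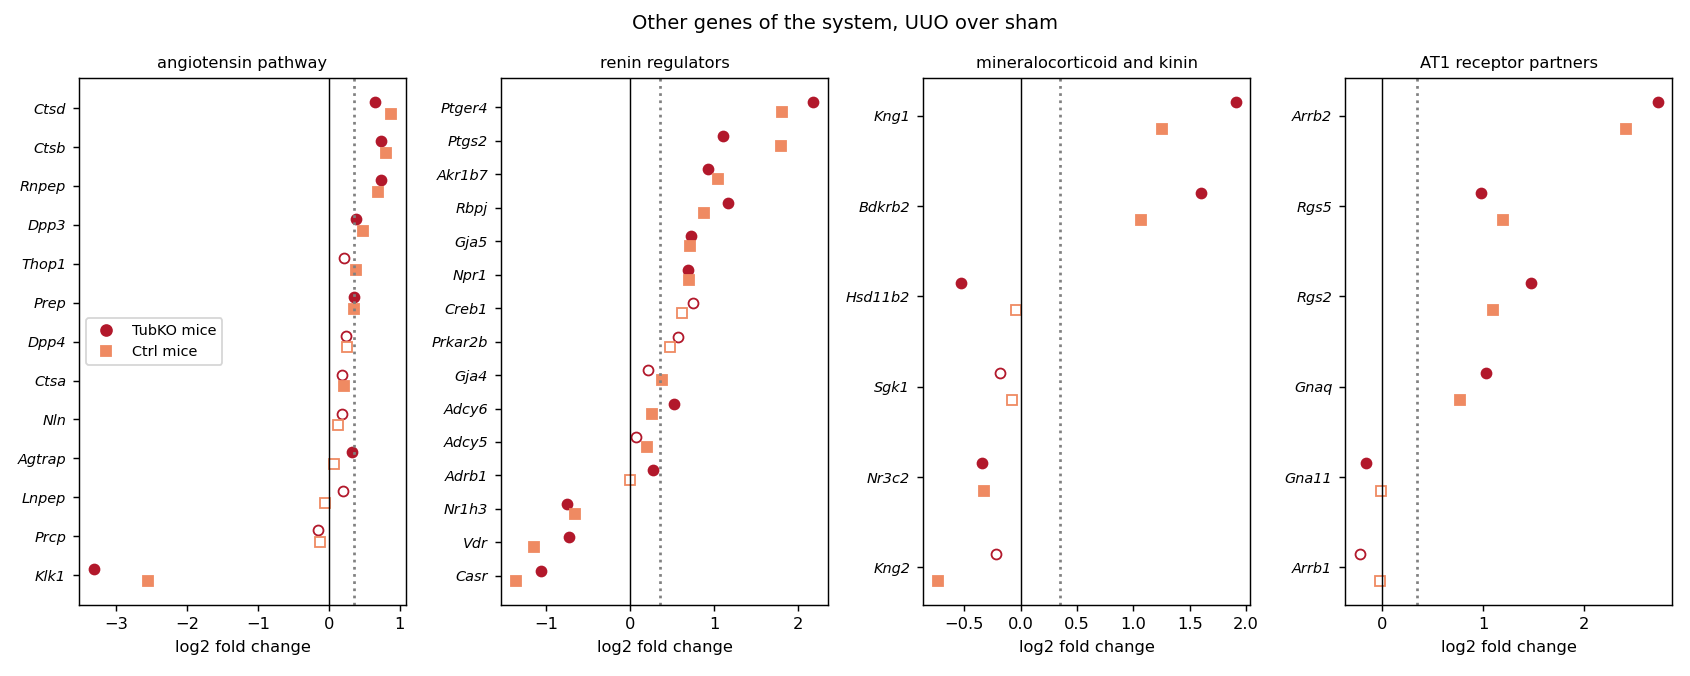
Log2 fold change after UUO of the tested genes of the 4 lists, in TubKO mice (circles) and Ctrl mice (squares), filled where the adjusted p was under 0.05, with a grey dotted line at the Ctrl all-gene median of 0.35. Klk1 was at -3.32 and -2.55 and Arrb2 at 2.72 and 2.41.

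The genes whose pattern over the 20 kidneys was most like each member were found by the root mean square difference of log2(FPKM + 1) after centring each gene. For Ace these were Gm11992 (0.178) and Acad10 (0.18), where a flat line gave 0.72, and for Anpep Gfm1 and Ddah1 (0.157 for both), where a flat line gave 0.602. For Enpep they were Plekhb2 (0.159) and 3632451O06Rik (0.163), against 0.337 for a flat line. For Mme they were Nars2 (0.133) and Bag1 (0.135), against 0.242. Agtr1a was nearest to Stk32c (0.272) and Pgp (0.277), against 0.382, Agt to C1qtnf9 (0.158) and Lamtor1 (0.16), against 0.195, and Atp6ap2 to Cops5 (0.0821) and Adipor1 (0.085), against 0.12. Ren1 had no gene closer than Atp6v0c (0.445) and Hist1h4i (0.451), against 0.561. For Agt, Ren1, Agtr1a and Atp6ap2 the nearest gene was thus not much nearer than a flat line. These likenesses are over kidneys that share the split into UUO and sham and carry no test.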

How the data were processed

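RNA was taken from left kidney homogenates with TRIzol, enriched with oligo(dT) beads, made into stranded KAPA libraries and sequenced as 150-base pairs on a NovaSeq. Per the submitters' processing notes and the study's methods, cutadapt trimmed the reads, HISAT2 aligned them to GRCm38 and StringTie estimated abundances, and the authors deposited FPKM per gene and per transcript from Ballgown. Versions were not given in the sources used here. FPKM keeps no read depth, so no counting interval was given.

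The 8 genes and all gene lists were chosen with earlier results of these data known. Values were tested as log2(FPKM + 1) in limma 3.58.1 (R 4.3.3), with 1 mean per group over all 20 kidneys, a mean-variance trend and Benjamini-Hochberg adjustment over 13842 genes, called at an adjusted p under 0.05. Genes whose mean stayed under 0.5 FPKM in all 4 groups were to be dropped, which removed 0. Named genes were the 8 members, every list gene that passed and the 2 nearest genes of each member by root mean square difference. One gene of the pathway list is not reported here and was left out of that list's counts and medians. Each mouse is a sample of its own. The labels do not say whether litters or runs were shared. By the number series of the animal labels, 163 and 165, TubKO sham held 1 and 4 mice and each other group 3 and 2. The fit was tested on simulated data. Alternatives were a pseudocount of 0.1, a filter of 1 FPKM, the compared groups alone, upper quartile, quantile and proximal tubule rescaling, removal of a length trend (GENCODE transcript lengths), a Ballgown-like F-test with a library-size covariate, the identifier series as a covariate, leaving out each mouse and, chosen after seeing the data, leaving out both Ctrl UUO kidneys that stood apart. Promoter windows came from RefSeq on GRCm38.p6. Figures were drawn with matplotlib 3.10.9.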

Additional observations from a re-analysis of the deposited data

Results flagged for a closer look

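In 32 sets of 5 kidneys (8 genes in 4 groups), the gap between an extreme kidney and its nearest neighbour was set against the range of the group, and 2 sets passed Dixon's 95% critical value of 0.71. Chance flags about 1 set in 20. Ren1 read 23.1 FPKM in TubKO UUO mouse 2, far above the other 4 mice of that group, whose highest was 11.5 FPKM. Agtr1a read 11.4 FPKM in TubKO sham mouse 1, above the next value of 8.84 FPKM, and without that kidney the fall of Agtr1a in TubKO mice no longer passed the test (adjusted p = 0.0883). No gene of the 8 had a change after UUO that differed between genotypes by the limma interaction test.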

How the results depend on the processing

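Of the 8 genes, the fall of Ace and Anpep after UUO passed the test in both genotypes under every alternative except the Ballgown-like F-test and the rescaling to proximal tubule markers. The counts of these genes called moved as follows. The Ballgown-like F-test called 0 of the 8 in any comparison, but of all 13842 genes it called 1 in TubKO and 0 in Ctrl mice after UUO, 15 between genotypes after sham surgery, 3 after UUO and 27 for the interaction. It was called on an adjusted p and is not the study's own analysis. The study, using Ballgown with cuts on P and fold change, reported many genes up and down after UUO in both genotypes. The library-size covariate of the F-test was not compared between sham and UUO libraries. FPKM summed over all genes, a different sum, did not overlap between them (298467 to 316964 in UUO and 347739 to 387375 in sham kidneys). No conclusion about single genes is drawn from the F-test values after UUO. Rescaling to proximal tubule markers called 8 in TubKO and 7 in Ctrl mice after UUO, all higher, and 0 between genotypes after UUO. It adds 1 amount to every gene of a kidney, and of all 13842 genes 13561 rose in TubKO and 13471 in Ctrl mice under it and 3 were called between genotypes after UUO. Upper quartile rescaling and quantile normalization each called 5 in Ctrl mice, all lower. A fit of the compared groups alone called 0 between genotypes after UUO, and its cause was not tested beyond there being fewer kidneys. No count of the 8 genes moved by more than 1.5 times when any single mouse was left out. Over all genes the counts between genotypes did, over 58 to 406 higher and 127 to 684 lower after sham surgery, 85 to 731 higher and 119 to 568 lower after UUO, and 0 to 49 higher and 0 to 47 lower for the interaction. No paired analysis was possible because the labels give no replicate numbers shared between groups.

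Signs turned in these cases. Those under rescaling to proximal tubule markers follow from its shift of all genes, whose medians became 2.54 in TubKO and 2.10 in Ctrl mice after UUO, 0.37 between genotypes after UUO and 0.42 for the interaction, and each value given here lies below them. After UUO it gave 0.85 in TubKO and 0.44 in Ctrl mice for Ace, 1.08 and 0.68 for Anpep, 1.505 and 1.52 for Enpep, 1.66 and 1.54 for Mme, 1.66 and 1.35 for Agtr1a, and in TubKO mice 2.08 for Agt and 1.76 for Ren1. Between genotypes after UUO it gave 0.070 for Ace, 0.32 for Agt, 0.16 for Agtr1a, 0.16 for Anpep, 0.27 for Mme and 0.22 for Ren1, and for the interaction 0.22 for Agt, 0.32 for Agtr1a, 0.36 for Atp6ap2 and 0.12 for Mme. The Ballgown-like F-test gave 0.28 for Agt, 2.23 for Agtr1a and 3.62 for Ren1 in TubKO mice and -1.55 for Agt, 0.27 for Anpep, 0.84 for Enpep and -0.18 for Ren1 in Ctrl mice, none of them called. Upper quartile rescaling gave -0.15 for Atp6ap2 in TubKO mice and -0.18 for Agt and -0.10 for Atp6ap2 in Ctrl mice. Quantile normalization gave -0.041 for Ren1 in Ctrl mice. The small interaction terms turned for Ace with the identifier covariate (-0.022), without the length trend (-0.011) and without both Ctrl UUO kidneys that stood apart (-0.25), for Anpep without the length trend (-0.013), under upper quartile rescaling (-0.0016) and without those kidneys (-0.10), and for Atp6ap2 under quantile normalization (0.023) and without those kidneys (0.028).

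With each mouse left out in turn, the interaction ranged over -0.14 to 0.13 for Ace, -0.12 to 0.17 for Anpep, -0.24 to 0.035 for Agtr1a and -0.080 to 0.0056 for Atp6ap2, and the difference between genotypes after UUO over -0.038 to 0.047 for Atp6ap2 and -0.38 to 0.087 for Ren1. All of these missed the threshold throughout. The study's methods give a nominal read depth, but the depth of each library is not kept in FPKM. Low levels such as that of Ptgs2 after sham surgery are therefore given without an estimate of their counting error.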
